A study of Rattus norvegicus with 18 samples.

Results

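The genes described here encode the subunits of the proteasome, the protease complex that degrades proteins tagged with ubiquitin, and its activators. They were taken as every row of the count files whose name starts with Psm, one of the letters a to e and a number, which gave 41 rows of 31463. Of these, 17 encode core particle subunits (8 Psma and 9 Psmb genes), 18 were classed with the regulatory particle (6 Psmc and 12 Psmd genes) and 3 encode activators (Psme1, Psme2 and Psme4). The regulatory class includes Psmd5, an assembly chaperone that is not part of the finished complex, and it stayed in the sums by class. The other 3 names carry letters after the number (Psmc3ip, Psme1-ps1 and Psme3ip1) and are not subunits, so they were left out of the sums by class. RNA was sequenced from neuroglial cultures of the cortex of newborn Wistar rats, in which cytosine arabinoside limits the division of glia, to ask whether material secreted by glial progenitor cells alters the response to glutamate excitotoxicity. The cultures were used at day 10 in vitro and RNA was taken after 4 h in culture medium that followed the glutamate exposure. There were 6 groups of 3 libraries. Control cultures received no glutamate, and the Glutamate group received 100 µM glutamate. The Memantine group received glutamate together with 100 µM memantine, a blocker of NMDA-type glutamate receptors that served as the positive control of the model. The groups Glutamate_vesicles, Glutamate_secret and Glutamate_BPC received secreted material 1 day before glutamate, as extracellular vesicles, a protein fraction or the whole secretome, and the labels do not settle which of the last 2 materials is "secret" and which is "BPC". The methods speak of unrelated cultures for the experiments in general, but the labels do not tie the libraries of a group to separate cultures, so every p-value measures the spread between these libraries, which may be technical.

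The proteasome is built from a barrel-shaped core particle and a regulatory particle that caps it. Psma genes encode the outer rings of the barrel, which gate entry, and Psmb genes encode the inner rings, which hold the cutting sites. Psmc genes encode the ring of ATPases that unfolds substrates and pushes them into the barrel, and Psmd genes encode the parts that bind ubiquitin chains, remove them or hold the particle together. Cells raise the transcription of most subunit genes together when proteasome activity falls short, chiefly through the transcription factor encoded by Nfe2l1. Interferons instead raise a small group, in which Psmb8 and Psmb9 replace the standard cutting subunits and Psme1 and Psme2 form an activator ring, which serves the production of peptides for class I antigen presentation. In neurons the proteasome also turns over synaptic proteins, which is one reason why these genes are followed in excitotoxicity.

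Total counts ran from 8409565 in Control 1 to 17206342 in Glutamate_vesicles 2. The share of counts on ribosomal RNA (rRNA) genes ran from 3.04% in Glutamate_secret 2 to 43.0% in Control 1, the library that stood farthest apart on this measure. Summed levels of 11 neuron markers were 2235 to 2954 CPM (the counts of a gene in proportion to the library total, scaled by TMM factors) in Control, 643 to 1210 CPM in Glutamate, and 3663, 2466 and 700 CPM in Memantine 1, 2 and 3, so the library labelled Memantine 3 lay within the Glutamate range. The sums were 629 to 982 CPM with Glutamate_vesicles, 546 to 1112 CPM with Glutamate_secret and 723 to 1160 CPM with Glutamate_BPC, all below the Control range. Markers of astrocytes (2954 CPM or more) and of the oligodendrocyte lineage (378 CPM or more) were present in every library. Of 6 endothelial markers only 1, Pecam1, had enough counts to be tested, and it was near 0 (at most 2.65 CPM). The sum of the 4 of 8 fibroblast and mural markers that had enough counts was also near 0 (at most 19.4 CPM). These are bulk libraries, in which fewer cells of a type and less RNA per cell cannot be told apart. Leaving out both Control 1 and Memantine 3 left 0 proteasome genes called in each of the 9 comparisons below, and the share of all genes called without them is not given here.

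Promoter sequences are shown for 5 members because they carry the motifs of the 2 known control routes of this gene family, and because these 5 genes recur in the results. RefSeq promoters (GRCr8, 250 bases before to 50 after the annotated start) were found for 36 of the 41 rows. The core of the antioxidant response element, which the Nfe2l1 and Nfe2l2 proteins bind, was searched as TGACNNNGC on both strands and was present in 7 of 36 promoters (Psma3, Psmb2, Psmb5, Psmb6, Psmd1, Psmd3 and Psme4), that is 19.4% against 12.1% of all 33469 RefSeq promoters of that length. The core of the interferon-stimulated response element, searched as GAAA, any 2 bases and GAAA, was present in 5 of 36 (Psma4, Psmb3, Psmb8, Psmd7 and Psme2), or 13.9% against 3.92%. The GC box, GGGCGG, was present in 26 of 36, or 72.2% against 33.1%. The N positions let matches of different motifs share bases, and a match describes letters only. Each window below covers 100 bases before and 10 bases after the start in the direction of the gene, and the capitals mark the motif named above, read as its reverse complement in Psme4 and Psmb8.
Psmb5 (chr15:32047370-32047479, minus strand, GRCr8): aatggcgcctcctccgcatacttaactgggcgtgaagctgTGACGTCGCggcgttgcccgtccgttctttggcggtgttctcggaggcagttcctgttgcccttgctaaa
Psmb6 (chr10:55737788-55737897, plus strand, GRCr8): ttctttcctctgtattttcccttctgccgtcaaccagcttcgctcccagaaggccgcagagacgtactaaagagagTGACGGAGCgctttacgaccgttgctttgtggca
Psme4 (chr14:108706543-108706652, plus strand, GRCr8): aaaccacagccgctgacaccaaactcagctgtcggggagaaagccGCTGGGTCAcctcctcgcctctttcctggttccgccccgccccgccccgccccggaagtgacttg
Psmb8 (chr20:4657022-4657131, minus strand, GRCr8): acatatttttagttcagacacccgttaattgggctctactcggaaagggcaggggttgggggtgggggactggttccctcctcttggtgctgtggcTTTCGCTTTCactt
Psme2 (chr15:33052742-33052851, minus strand, GRCr8): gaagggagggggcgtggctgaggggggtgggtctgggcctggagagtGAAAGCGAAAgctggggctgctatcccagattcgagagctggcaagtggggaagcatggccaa

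Proteasome genes varied several-fold between libraries, and more of that variation went with the replicate number of a library than with its treatment. Of the 41 rows, 39 had enough counts to be tested. None of the 39 was called different between any of the 9 pairs of groups compared (edgeR quasi-likelihood test, Benjamini-Hochberg adjusted p below 0.05 over 14398 genes), and DESeq2 and the edgeR likelihood-ratio test also called 0 of them in each pair. The shares of all genes that DESeq2 and the likelihood-ratio test called, in the pairs and over the 6 groups, are not given here. Their counts of 0 members therefore have no share of all genes beside them. The F test over all 6 groups called 0 of 39 members, with 0 at unadjusted p below 0.05, against 0.00695% and 7.75% of all genes. DESeq2 and the likelihood-ratio version of the test over 6 groups called 0 members as well. In that test the 5 members of smallest p were Psmb2, Psma2, Psmb9, Psmc6 and Psmd14, for which the unadjusted p began at 0.282 and the adjusted p was 1. In a fit with group and number as terms, 29 of the 39 were lower in libraries numbered 2 than in those numbered 1, beside 28.5% of all genes lower and 32.8% higher, and this count was 11 without scaling factors and 0 with the rRNA share in the fit.

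**Figure D1:**
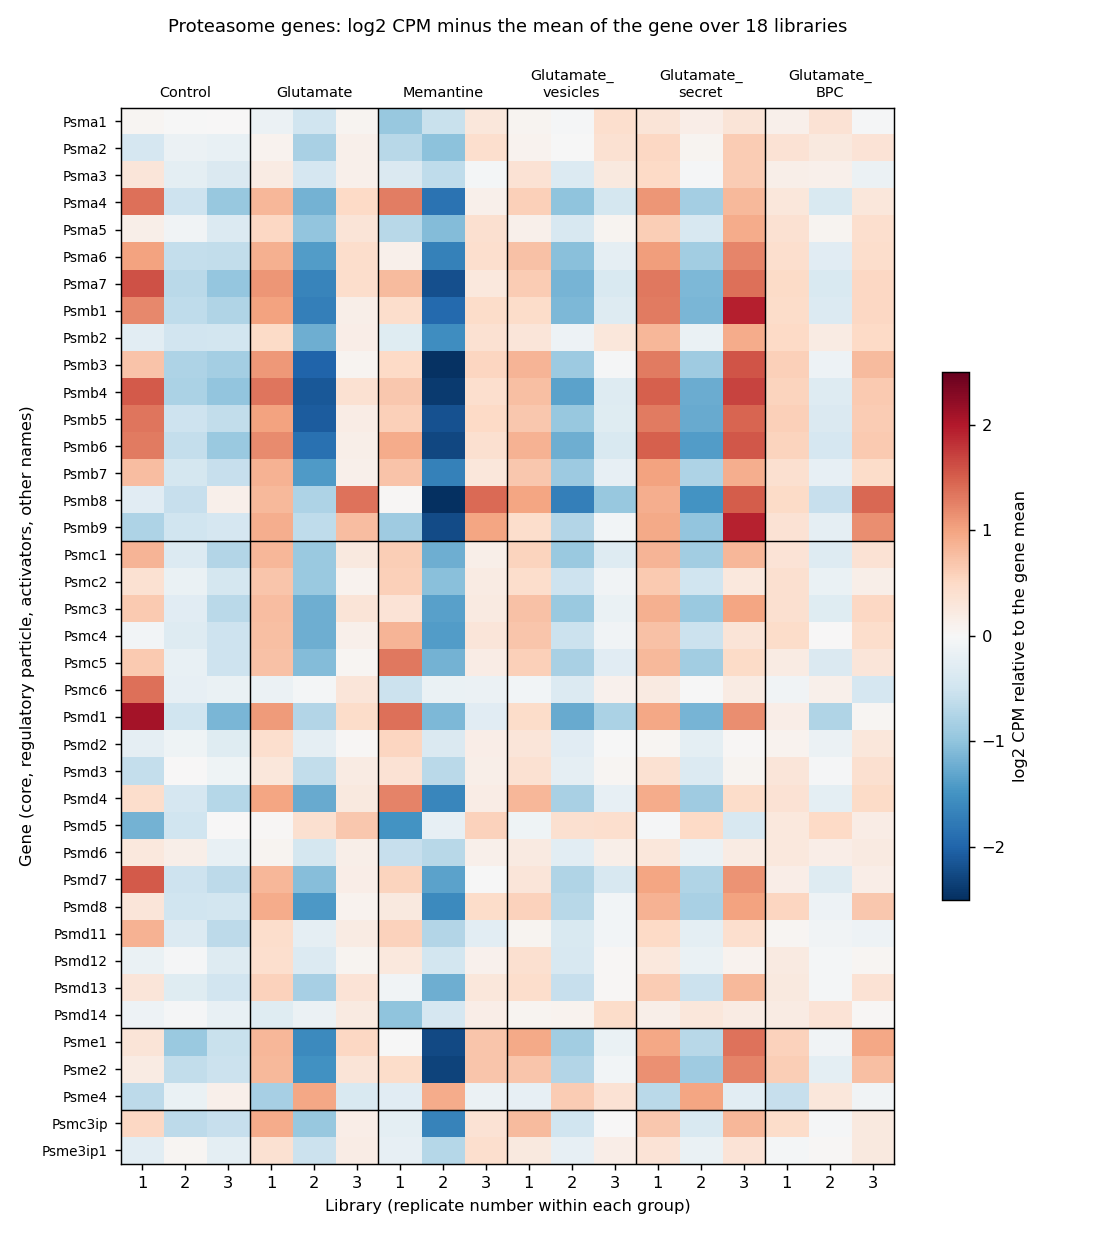
Levels of the 39 tested proteasome genes in the 18 libraries, as log2 CPM minus each gene's mean over all libraries; rows are genes by class and columns are libraries by group and replicate number. Outside Control, most rows are lowest in the number 2 library of the group, and Psme4 is highest there.

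The core particle genes spread more between libraries than the regulatory particle genes. Over the 16 core genes that were tested, the highest library exceeded the lowest by a median of 10.8-fold, against 4.16-fold for the 18 regulatory particle genes, 11.9-fold for the 3 activators and 5.24-fold for the 10454 genes that stayed above 1 CPM in every library. The lowest library was Memantine 2 for 33 of the 39 members. Psmb4, a structural subunit of the inner ring, had one of the widest ranges, from 90.01 to 1525 CPM. Psma7, a subunit of the outer ring, ranged from 96.8 to 1349.7 CPM. Psma1 and Psma3, also of the outer ring, had the narrowest ranges of the core with Psma2, at 2.58-fold, 2.42-fold and 3.14-fold from lowest to highest library.

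The 3 standard cutting subunits had the same pattern over the libraries and did not separate the groups. Psmb5, which cuts after large hydrophobic residues, read 400.3, 111 and 103 in Control, 318, 37.6 and 179 in Glutamate and 240.3, 35.1 and 223 in Memantine, and 253, 81.8 and 128 with Glutamate_vesicles, 387, 66.6 and 434 with Glutamate_secret and 239.6, 124 and 245 with Glutamate_BPC (CPM, replicates 1, 2 and 3 in that order). Psmb6, which cuts after acidic residues, read 470.3, 127 and 101 in Control, 437, 52.6 and 212 in Glutamate and 367, 39.7 and 253 in Memantine, and 351, 82.7 and 148 with Glutamate_vesicles, 541, 73.3 and 564 with Glutamate_secret and 282, 144 and 304 with Glutamate_BPC. Psmb7, which cuts after basic residues, read 532, 232 and 211 in Control, 569, 118 and 342 in Glutamate and 511, 96.95 and 379 in Memantine, and 500.5, 167 and 270.4 with Glutamate_vesicles, 633, 184 and 592 with Glutamate_secret and 411, 273 and 433 with Glutamate_BPC. For all 3 genes the number 2 library was the lowest of its group outside Control, where number 3 was slightly lower, and the ranges of Glutamate and Control overlapped. The log2 fold changes of Glutamate against Control were -0.20 (SE 0.85, 95% interval -2.01 to 1.62, adjusted p = 0.999) for Psmb5, 0.01 (SE 0.92, 95% interval -1.95 to 1.96, adjusted p = 1) for Psmb6 and 0.08 (SE 0.68, 95% interval -1.37 to 1.53, adjusted p = 0.999) for Psmb7. These intervals hold changes of more than 1 log2 unit in both directions. They come from the fit without a term for replicate number, which could not exclude a change of that size. The sign rested on single libraries: without Control 1 the values were 0.73, 1.04 and 0.63, and without Glutamate 1 they were -0.91, -0.80 and -0.49.

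The interferon-inducible cutting subunits were low in every library and were highest in number 3 libraries of several groups. Psmb8, which takes the place of Psmb5 in the immunoproteasome, read 10.3, 8.39 and 13.6 in Control, 21.96, 7.30 and 31.8 in Glutamate and 12.8, 1.89 and 33.4 in Memantine, and 24.8, 3.81 and 6.51 with Glutamate_vesicles, 23.5, 4.42 and 35.5 with Glutamate_secret and 17.5, 8.36 and 33.6 with Glutamate_BPC. Psmb9, which takes the place of Psmb6, read 8.57, 10.4 and 10.99 in Control, 27.4, 9.40 and 25.1 in Glutamate and 7.95, 3.11 and 29.03 in Memantine, and 19.8, 8.79 and 13.9 with Glutamate_vesicles, 28.04, 7.34 and 55.2 with Glutamate_secret and 18.8, 12.5 and 32.5 with Glutamate_BPC. Each had its highest value in Glutamate_secret 3 and its lowest in Memantine 2. The log2 fold changes of Glutamate against Control were 0.92 (SE 0.94, 95% interval -1.08 to 2.91, adjusted p = 0.995) for Psmb8 and 1.04 (SE 0.75, 95% interval -0.56 to 2.64, adjusted p = 0.922) for Psmb9, the highest 2 of the 39 members, and the ranges of both genes overlapped because Glutamate 2 was within or below the Control libraries. With single libraries left out, Psmb8 ran from 0.44 (without Glutamate 3) to 1.32 (without Glutamate 2) and Psmb9 from 0.78 (without Glutamate 1) to 1.39 (without Glutamate 2). Psmb9 was higher in every Glutamate_BPC library than in every Control library, with a log2 fold change of 1.08 (SE 0.75, 95% interval -0.52 to 2.68, adjusted p = 0.633). Microglia, which express these subunits strongly, differed between the same libraries: the summed CPM of 10 microglia markers was 43.97, 139.5 and 140.1 in Control, 145, 119 and 408 in Glutamate and 36.7, 50.9 and 505 in Memantine, and 66.9, 157 and 205 with Glutamate_vesicles, 99.2, 181 and 763 with Glutamate_secret and 141, 389.6 and 565 with Glutamate_BPC. Glutamate_secret 3, Glutamate_BPC 3, Memantine 3 and Glutamate 3 were high for Psmb8, for Psmb9 and for these markers, while Glutamate_BPC 2 was high for the markers alone. Glutamate_vesicles 1, Glutamate_secret 1 and Glutamate 1 were also high for both subunits, at lower marker sums of 66.9, 99.2 and 145 CPM, and the part of the markers in the Psmb8 and Psmb9 levels was not tested. Of 16 tested genes of class I antigen processing and the interferon response, 0 were called between Glutamate and Control and 0 had an unadjusted p below 0.05, against 0% and 8.11% of all genes. The largest members of that list by p were Tap1, which loads peptides into the endoplasmic reticulum (log2 fold change 0.71, SE 0.35, adjusted p = 0.661), Tapbp (0.65, SE 0.43, adjusted p = 0.864) and B2m, the light chain of class I molecules (0.77, SE 0.58, adjusted p = 0.932).

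Among the ATPases of the regulatory particle, Psmc6 was the single member that reached an unadjusted p below 0.05 in any pair of groups, and that value rested on 1 library. Psmc6 read 248, 83.8 and 85.7 in Control, 87.2, 92.9 and 118 in Glutamate and 66.1, 85.9 and 86.4 in Memantine, and 91.5, 75.7 and 103 with Glutamate_vesicles, 112, 95.5 and 111 with Glutamate_secret and 90.4, 105 and 71.6 with Glutamate_BPC. Control 1 was more than 2-fold above every other library, and the remaining 17 libraries lay between 66.1 and 118 CPM. The log2 fold change of Memantine against Control was -0.81 (SE 0.38, 95% interval -1.61 to -0.0032, adjusted p = 1) at an unadjusted p of 0.0492, that of Glutamate against Control was -0.48 (SE 0.38, 95% interval -1.28 to 0.32, adjusted p = 0.945), and that of Glutamate_vesicles against Control was -0.63 (SE 0.38, 95% interval -1.43 to 0.18, adjusted p = 0.589). Without Control 1 the 3 values were -0.09, 0.23 and 0.09. Memantine libraries were all below the Glutamate libraries for Psmc6, with a log2 fold change of -0.32 (SE 0.38, 95% interval -1.12 to 0.48, adjusted p = 0.999).

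Several non-ATPase genes of the regulatory particle showed the same dependence on Control 1. Psmd1, a large scaffold subunit at the base, read 2206, 369.6 and 236 in Control, 1087, 314 and 722 in Glutamate and 1364, 242 and 429 in Memantine, and 716, 218 and 300.3 with Glutamate_vesicles, 1022, 232 and 1166 with Glutamate_secret and 588, 311 and 539 with Glutamate_BPC. Psmd7, the partner of the deubiquitinase in the lid, read 599, 144 and 132 in Control, 366, 98.6 and 232 in Glutamate and 305, 81.4 and 205 in Memantine, and 254, 123 and 158 with Glutamate_vesicles, 413, 123 and 449 with Glutamate_secret and 233, 165 and 231 with Glutamate_BPC. Control 1 was the highest library for both genes, and the other 2 Control libraries were far below it. With Psmc6 they had the 3 lowest log2 fold changes of Glutamate against Control, -0.40 (SE 0.86, 95% interval -2.24 to 1.43, adjusted p = 0.999) for Psmd1 and -0.33 (SE 0.67, 95% interval -1.75 to 1.10, adjusted p = 0.999) for Psmd7. Without Control 1 they were 1.23 and 0.75, so the direction was set by that library. The narrowest ranges of all members were those of Psmd12, a lid subunit (1.82-fold), Psmd2, a base subunit that receives substrates from shuttle factors (1.87-fold), and Psmd6, a lid subunit (1.99-fold).

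Psmd5, a chaperone for the assembly of the regulatory particle that is not part of the finished complex, was 1 of 2 members that were lower in libraries with more rRNA (the fit is given with the rRNA share). It read 26.3, 42.7 and 60.2 in Control, 60.8, 78.98 and 96.2 in Glutamate and 21.2, 51.7 and 89.5 in Memantine, and 55.6, 79.2 and 79.8 with Glutamate_vesicles, 59.1, 84.2 and 45.4 with Glutamate_secret and 71.6, 85.02 and 68.2 with Glutamate_BPC. All Glutamate libraries lay above all Control libraries, by a narrow margin (60.8 against 60.2 CPM), and the log2 fold change was 0.87 (SE 0.44, 95% interval -0.08 to 1.81, adjusted p = 0.689), the smallest p of any member in that pair, with 0.61 (without Control 1) to 1.19 (without Control 3) when single libraries were left out. Glutamate_BPC libraries also lay above the Control libraries, with a log2 fold change of 0.80 (SE 0.44, 95% interval -0.14 to 1.74, adjusted p = 0.522), which was 0.54 without Control 1. Against Glutamate, Memantine gave -0.54 (SE 0.44, 95% interval -1.47 to 0.40, adjusted p = 0.999) with overlapping ranges, a value that was -0.16 without Memantine 1 and -1.11 without Memantine 3. The lowest values were 21.2 CPM in Memantine 1 and 26.3 CPM in Control 1. Summed over all members, these libraries had 10639 and 13899 CPM, above the median of 8474 CPM over all libraries. Memantine 1 was also the lowest library for Psma1, Psmc6 and Psmd14.

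The activators split into an inducible pair and a constitutive gene. Psme1 and Psme2 encode the 2 subunits of one activator ring. Psme1 read 157, 66.5 and 85.4 in Control, 224, 41.9 and 181 in Glutamate and 125, 26.4 and 205 in Memantine, and 243, 69.1 and 113 with Glutamate_vesicles, 246, 78.04 and 323 with Glutamate_secret and 188, 119 and 247 with Glutamate_BPC. Psme2 read 58.2, 33.3 and 35.1 in Control, 89.4, 17.8 and 63.8 in Glutamate and 69.5, 10.2 and 81.8 in Memantine, and 81.8, 30.5 and 48.2 with Glutamate_vesicles, 113, 27.4 and 121 with Glutamate_secret and 77.3, 42.8 and 85.8 with Glutamate_BPC. Both followed the core genes, with the lowest value in Memantine 2 and the highest in Glutamate_secret 3, and neither separated any treatment group from Control. Psme4, which encodes a large nuclear activator, read 30.6, 42.6 and 52.5 in Control, 26.99, 93.6 and 36.97 in Glutamate and 39.4, 90.95 and 43.6 in Memantine, and 41.9, 74.3 and 62.02 with Glutamate_vesicles, 30.1, 95.3 and 40.01 with Glutamate_secret and 32.1, 58.1 and 45.1 with Glutamate_BPC. In 5 of the 6 groups its number 2 library was the highest, and in Control it lay between the other two. The log2 fold changes of Glutamate against Control were 0.53 (SE 0.74, 95% interval -1.04 to 2.11, adjusted p = 0.999) for Psme1, 0.44 (SE 0.72, 95% interval -1.09 to 1.96, adjusted p = 0.999) for Psme2 and 0.33 (SE 0.52, 95% interval -0.78 to 1.43, adjusted p = 0.999) for Psme4. That of Psme1 was 0.12 without Glutamate 1 and 0.98 without Glutamate 2. Those of Psme2 and Psme4 changed sign without Glutamate 1 (-0.04) and without Glutamate 2 (-0.39), respectively.

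Psma8, an outer ring subunit of germ cells, and Psme1-ps1, a pseudogene of Psme1, were not tested. Psma8 had 4 counts in all, in Glutamate 1, Glutamate_vesicles 1 and Glutamate_BPC 3. Psme1-ps1 had 80 counts in all, and its counts may include reads of Psme1, which it resembles. The other names outside the complex were Psmc3ip, a factor of meiotic recombination, at 5.50 to 33.3 CPM, and Psme3ip1 at 22.9 to 50.2 CPM. Psmb10, Psmd9, Psmd10 and Psme3 are not among the 41 rows and were not analysed here.

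**Figure D2:**
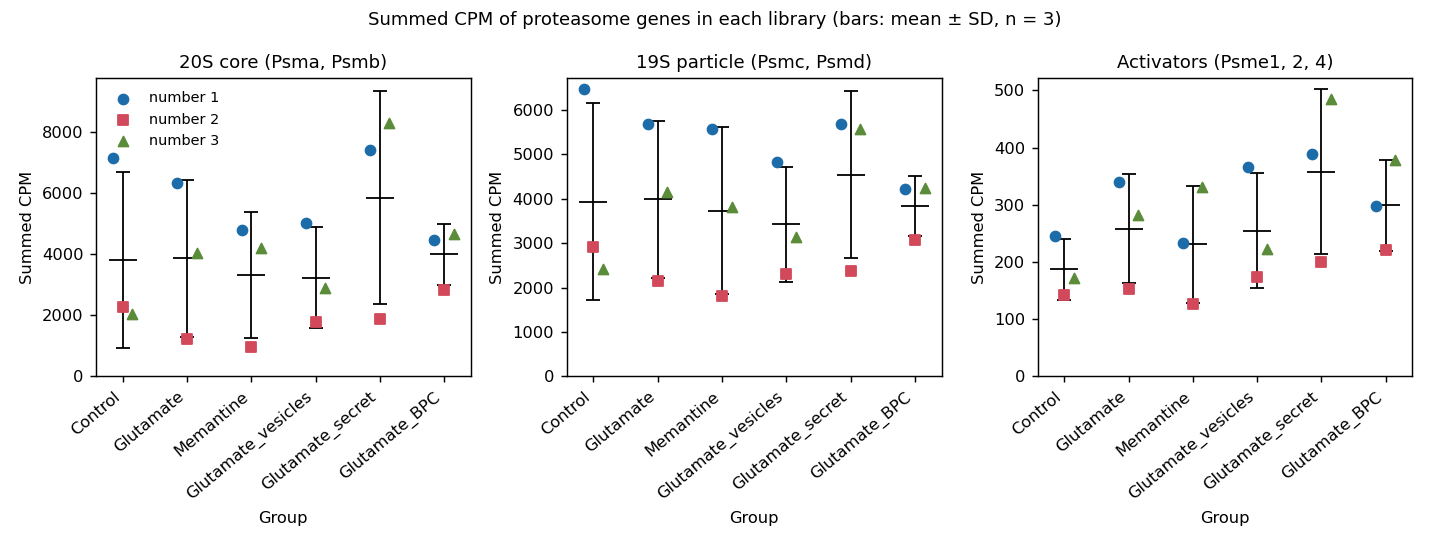
Summed CPM of the core, regulatory particle and activator genes in each library, by group, with 1 marker per library and replicate number; bars give the mean and SD of 3 libraries. The number 2 library is the lowest in the 5 groups other than Control, and the range of each group overlaps that of Control.

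By class, the sums over members show the same picture. The summed level of core genes was 7135, 2269 and 2029 in Control, 6326, 1218 and 4034 in Glutamate and 4796, 969 and 4212 in Memantine, and 5029, 1779.6 and 2899 with Glutamate_vesicles, 7395, 1871 and 8287 with Glutamate_secret and 4478, 2840.2 and 4647 with Glutamate_BPC (CPM). The summed level of regulatory particle genes was 6462, 2904 and 2408 in Control, 5664, 2145 and 4145 in Glutamate and 5561, 1805 and 3809.6 in Memantine, and 4830.2, 2294 and 3135 with Glutamate_vesicles, 5669.9, 2374 and 5573 with Glutamate_secret and 4222, 3064 and 4233 with Glutamate_BPC. The summed level of the 3 activators was 246, 142 and 173 in Control, 340.1, 153 and 282 in Glutamate and 234, 128 and 330.5 in Memantine, and 367, 174 and 223 with Glutamate_vesicles, 389, 201 and 484 with Glutamate_secret and 298, 220.4 and 378 with Glutamate_BPC. The range of every group overlapped that of Control in all 3 classes, with Control 1 among the highest libraries for the core and the regulatory particle and Control 2 and 3 among the lower ones. All members together summed to 7972 ± 5145 CPM in Control, 8162 ± 4441 in Glutamate and 7331 ± 3969 in Memantine, and to 6970 ± 3057 with Glutamate_vesicles, 10815 ± 5493 with Glutamate_secret and 8187 ± 1744 with Glutamate_BPC (SD, n = 3). In each of the 9 pairs the difference between means was smaller than the SD of both groups. Within numbers 1, 2 and 3, Glutamate_secret was above Glutamate each time (13529 against 12412, 4493 against 3551 and 14422 against 8524 CPM), Memantine was below Glutamate each time (10639, 2930 and 8425 CPM) and Glutamate_BPC lay on both sides (9058, 6179.7 and 9324 CPM). In these 3 pairs the replicate numbers paired the libraries. An edgeR quasi-likelihood fit with the number as a block called 0 of 39 members and 0% of all genes at adjusted p below 0.05 in each. At an unadjusted p below 0.05 there were 0 members, and the share of all genes by that measure is not given here.

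Glutamate against Control asks what excitotoxicity does to these genes. The median log2 fold change over the 39 members was 0.12, against 0.08 over all 14398 genes, with 30 members above 0 and 9 below. It was 0.07 for the core, 0.14 for the regulatory particle and 0.44 for the activators. No member was called (0 of 39 at adjusted p, 0 of 39 at unadjusted p below 0.05), against 0% and 8.11% of all genes. The ranges of the libraries did not overlap for 1 member, Psmd5, which is 2.56% of members against 12.2% of all genes. The median was 0.64 without Control 1 and -0.18 without Glutamate 1, so its direction depended on single libraries. In the same pair the neuron markers had a median log2 fold change of -1.44, and 8 of 11 had an unadjusted p below 0.05, with 0 called (Tubb3 -2.02, SE 0.43, adjusted p = 0.261).

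**Figure D3:**
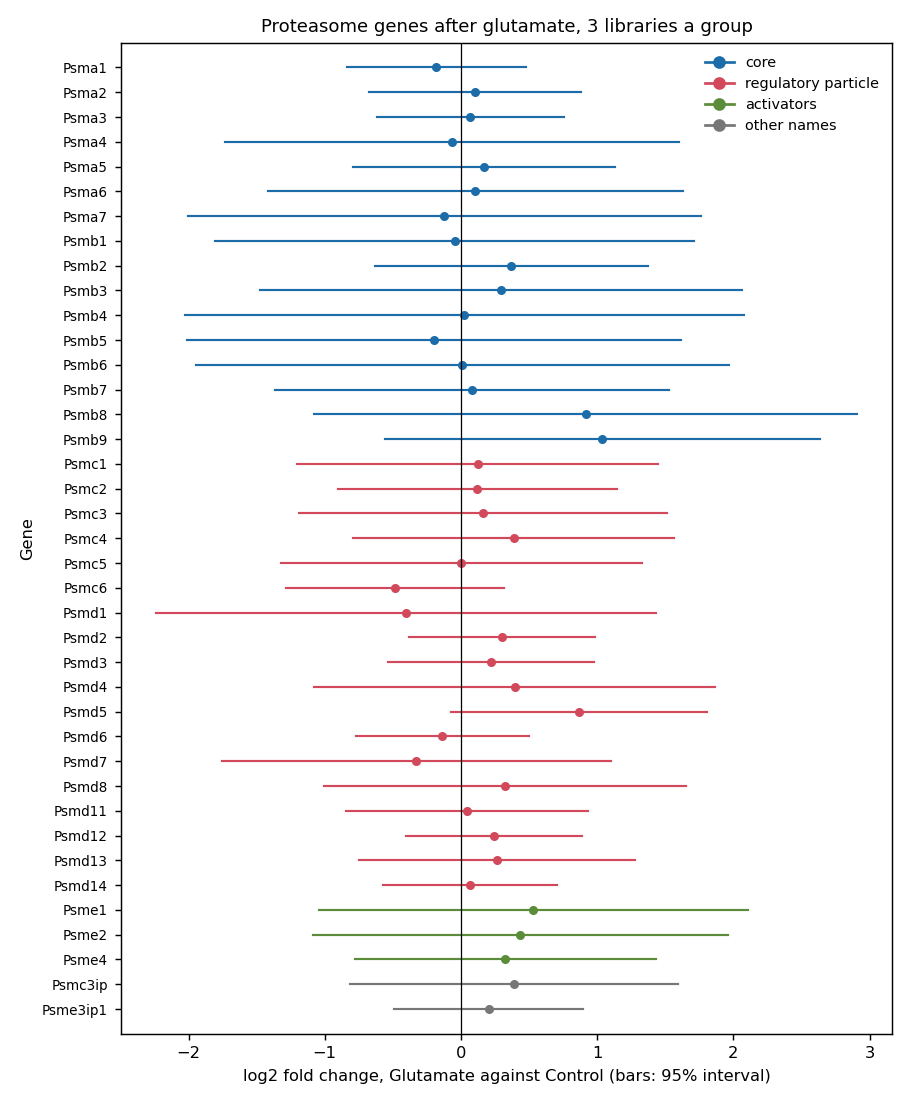
Log2 fold change of each tested proteasome gene in Glutamate against Control (points, coloured by class) with the 95% interval of the edgeR quasi-likelihood fit, 3 libraries a group. Every interval includes 0, from Psmc6 at -0.48 to Psmb9 at 1.04.

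The comparisons with Glutamate ask what the blocker and the secreted material changed in the model. With Memantine the median over members was -0.19 (all genes -0.02), and 33 of 39 were below 0. No member was called and none had an unadjusted p below 0.05, against 0% and 5.08% of all genes, and the ranges did not overlap for 1 member (2.56%; all genes 2.86%), Psmc6. With Glutamate_vesicles the median was -0.13 (all genes -0.01), and 29 were below 0. No member was called or had an unadjusted p below 0.05, against 0% and 1.08% of all genes, and 0 members had ranges that did not overlap (all genes 6.27%). Without scaling factors these medians were 0.02 and 0.19, while the medians of all genes moved to 0.12 and 0.20, so the direction against all genes stayed below in both. With the rRNA share as a covariate they were 0.30 and 0.37. Without Glutamate 1 they were 0.16 and 0.24, and without Glutamate 2 and Glutamate_vesicles 1, respectively, they were -0.51 and -0.50.

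Glutamate_secret gave the highest medians. Against Glutamate the median over members was 0.30 (all genes -0.01), with 36 of 39 above 0, including all 16 core genes, whose median was 0.54. No member was called and none had an unadjusted p below 0.05, against 0% and 0.681% of all genes. The ranges did not overlap for 1 member (2.56%; all genes 3.41%), Psma1, with a log2 fold change of 0.44 (SE 0.31, 95% interval -0.21 to 1.10, adjusted p = 1). For Psma1, which also had the smallest p with Glutamate_vesicles, that material gave 0.34 (SE 0.31, 95% interval -0.31 to 1.00, adjusted p = 1). The member of smallest p was Psma2 at 0.57 (SE 0.37, 95% interval -0.22 to 1.35, adjusted p = 1). With Glutamate_BPC the median was 0.05 (all genes -0.05), and 23 were above 0. No member was called or had an unadjusted p below 0.05, against 0% and 1.07% of all genes, and the ranges did not overlap for Psma2 and Psmd6 (5.13%; all genes 7.13%), of which Psma2 gave 0.45 (SE 0.37, 95% interval -0.33 to 1.24, adjusted p = 1). Leaving out Glutamate 2 gave medians of 0.04 and -0.27 for these materials, and leaving out Glutamate 1 gave 0.68 and 0.44. Under the other alternative fits the median ran from 0.064 to 0.45 for Glutamate_secret and from 0.055 to 0.25 for Glutamate_BPC.

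Against Control, which the following 4 comparisons share, more members were separated with the secreted materials than with Memantine, as was the case for all genes. For Memantine the median was -0.05 (all genes 0.10), and 1 member, Psmc6, had an unadjusted p below 0.05, with 0 called, against 1.12% and 0% of all genes. No member had ranges that did not overlap in that pair (all genes 2.35%). For Glutamate_vesicles the median was 0.13 (all genes 0.03), with 0 of 39 called and 0 at unadjusted p below 0.05, against 0.0139% and 11.6% of all genes, and 3 members (7.69%) had ranges that did not overlap, against 19.5% of all genes. For Glutamate_secret the median was 0.52 (all genes 0.06), with 37 above 0, 0 called and 0 at unadjusted p below 0.05, against 0% and 11.8% of all genes, and 4 members (10.3%) had ranges that did not overlap, against 15.9%. For Glutamate_BPC the median was 0.22 (all genes -0.06), with 0 called and 0 at unadjusted p below 0.05, against 0% and 11.3% of all genes, and 6 members (15.4%) had ranges that did not overlap, against 24.9%. In each of these 4 pairs the share of members with ranges that did not overlap was below that of all genes. The median of Memantine ran from -0.16 to 0.30 under 8 alternative fits and had the other sign in 4 of them. Without scaling factors it was 0.14 (all genes 0.20). The medians of Memantine and Glutamate_vesicles also changed sign with single libraries, from -0.27 without Memantine 3 to 0.43 without Control 1, and from -0.17 without Glutamate_vesicles 1 to 0.43 without Control 1. The median of Glutamate_secret was 0.93 without Control 1 and 0.28 without Glutamate_secret 3, and that of Glutamate_BPC was 0.69 without Control 1 and 0.16 without Control 3. Under the other alternative fits they ran from 0.24 to 0.90 and from 0.21 to 0.65, respectively. For Glutamate_vesicles against Control the replicate numbers paired the libraries. An edgeR quasi-likelihood fit that took the number as a block called 0 of 39 members and 3.74% of all genes at adjusted p below 0.05. At an unadjusted p below 0.05 there was 1 member, and the share of all genes by that measure is not given here.

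Psma2, Psmb2 and Psmd14 were the members whose 3 libraries lay above all Control libraries with each of the secreted materials, comparisons that share those Control libraries. They are 7.69% of the members, beside 600 of 14398 genes (4.17%) above Control in the same way and 941 (6.54%) below, where the members had 0. Psma2, an outer ring subunit, read 83.4, 100.1 and 97.9 in Control, 118, 63.04 and 122 in Glutamate and 68.7, 54.7 and 148 in Memantine, and 117, 109.5 and 145 with Glutamate_vesicles, 159.7, 116 and 172 with Glutamate_secret and 143, 130.4 and 141 with Glutamate_BPC. Psmb2, an inner ring subunit without a cutting site, read 87.4, 75.4 and 76.9 in Control, 146, 45.01 and 118 in Glutamate and 85.7, 35.7 and 138 in Memantine, and 129.5, 95.97 and 128 with Glutamate_vesicles, 188, 93.2 and 201 with Glutamate_secret and 148, 122 and 149 with Glutamate_BPC. Psmd14, the deubiquitinase that removes ubiquitin chains at the lid, read 97.6, 105 and 93.8 in Control, 87.2, 96.9 and 126 in Glutamate and 53.05, 80.3 and 120.2 in Memantine, and 113, 113 and 147 with Glutamate_vesicles, 118, 130.2 and 124 with Glutamate_secret and 124, 135 and 109.7 with Glutamate_BPC. The Control libraries were close together for all 3 genes, within 75.4 to 87.4 CPM for Psmb2, while Glutamate and Memantine libraries lay on both sides of them. The log2 fold change of Psmb2 against Control was 1.01 (SE 0.48, 95% interval -0.0037 to 2.02, adjusted p = 0.428) for Glutamate_secret at an unadjusted p of 0.0508, 0.81 (SE 0.47, 95% interval -0.20 to 1.81, adjusted p = 0.548) for Glutamate_BPC and 0.56 (SE 0.47, 95% interval -0.44 to 1.57, adjusted p = 0.783) for Glutamate_vesicles. Those of Psma2 were 0.67, 0.56 and 0.40 and those of Psmd14 were 0.33, 0.32 and 0.33 in the same order, with adjusted p from 0.521 to 0.812. Compared with Glutamate, the group that differs from these by the secreted material, no range was separate for Psmb2 or Psmd14.

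The balance of core to regulatory particle counts does not depend on library scaling. The ratio was 1.10, 0.782 and 0.842 in Control, 1.12, 0.568 and 0.973 in Glutamate and 0.862, 0.537 and 1.11 in Memantine, and 1.04, 0.776 and 0.925 with Glutamate_vesicles, 1.30, 0.788 and 1.49 with Glutamate_secret and 1.06, 0.927 and 1.10 with Glutamate_BPC. It was lowest in Memantine 2 and highest in Glutamate_secret 3, and the ranges of all groups overlapped. The mean log2 ratio of Glutamate differed from that of Control by -0.08, and Memantine, Glutamate_vesicles, Glutamate_secret and Glutamate_BPC differed from Glutamate by -0.09, 0.09, 0.44 and 0.27. With single libraries left out, the first of these ran from -0.27 to 0.21 and the others from -0.38 to 0.20, -0.20 to 0.29, 0.14 to 0.71 and -0.02 to 0.46. By replicate number the ratio was 0.862 to 1.30 in the 6 libraries numbered 1, 0.537 to 0.927 in those numbered 2 and 0.843 to 1.49 in those numbered 3.

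Replicate number accounted for most of the variance of these genes. The labels give it only as a number and do not say what libraries of one number share, and the study's supplement names a correction for day in its clustering plots without tying the days to these numbers. The median share of the variance of log2 CPM was 63.9% for number and 12.2% for group over the 39 members, against 42.2% and 22.4% over all genes tested, where number holds 11.8% and group 29.4% of the degrees of freedom. The share of number exceeded that of group in 32 members (82.1%), against 64.4% of all genes. Psmb5 (69.9% number, 8.54% group) and Psme4 (69.0% number, 9.37% group) followed the number. For Psma1 (13.8% number, 45.5% group), Psmd14 (15.9% number, 48.7% group) and Psma2 (26.3% number, 45.8% group) the share of group was the larger. Group holds more of the degrees of freedom, so a larger share does not by itself show an effect of group. In the F test over all 6 groups the unadjusted p was 0.434 for Psma1, 0.383 for Psmd14 and 0.287 for Psma2.

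**Figure D4:**
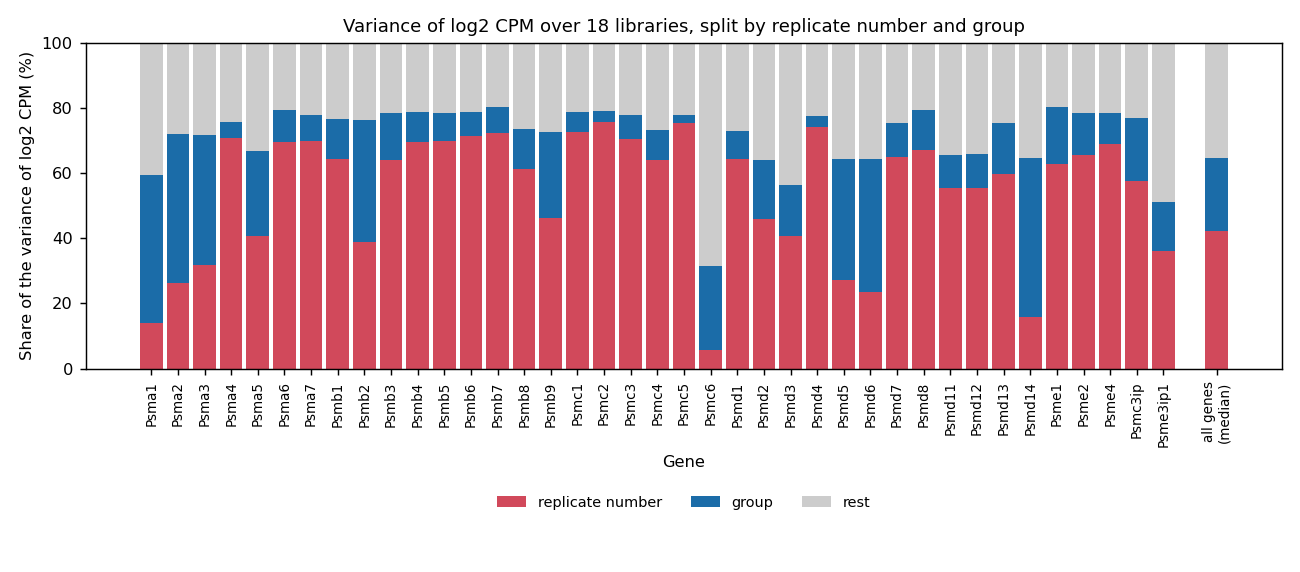
Share of the variance of log2 CPM over 18 libraries explained by replicate number, by group and by neither, for each tested proteasome gene, with the medians over all genes at the right. Number exceeds group in 32 of 39 members.

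In the fit with group and number, 29 of 39 members were lower in number 2 than in number 1 libraries and 1 was higher, against 28.5% of all genes lower and 32.8% higher (adjusted p below 0.05, edgeR quasi-likelihood). The median was -1.20, with -1.71 for the core and -0.98 for the regulatory particle, against 0.12 for all genes. Psmb4 was lower by the largest amount (log2 -2.38, SE 0.40, adjusted p = 0.000345), followed by Psmb6 (-2.28, SE 0.38), Psma7 (-2.15, SE 0.37) and Psmb5 (-2.07, SE 0.35). Psmb8 (-1.75, SE 0.43, adjusted p = 0.00252), Psmb9 (-0.995, SE 0.37, adjusted p = 0.0273), Psme1 (-1.63, SE 0.31) and Psme2 (-1.61, SE 0.31) were also lower. Psme4 was the 1 member that was higher (1.17, SE 0.22, adjusted p = 0.000466), in number 2 as against number 1 libraries. The 9 members not called in this contrast were Psma1, Psma2, Psma3, Psmc6, Psmd2, Psmd5, Psmd6, Psmd14 and Psme3ip1, with log2 differences from -0.45 (Psma3) to 0.56 (Psmd5). Against number 3 libraries, 27 members were lower in number 2 and 1 was higher, beside 22.1% and 19.8% of all genes. Between number 3 and number 1 libraries 0 members were called by the edgeR quasi-likelihood test, against 0.375% of all genes lower and 1.14% higher. In that test 10 members had an unadjusted p below 0.05, of which 8 were lower in number 3, and DESeq2 called 2 members. The shares of all genes by these 2 measures were not counted, so no excess of members can be read from them. Without scaling factors, which moved the median of all genes from 0.12 to 1.06, 11 members were lower and 6 higher, beside 8.82% and 54.8% of all genes.

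The rRNA share moved with the replicate number. The 9 libraries with more than 10% of counts on rRNA genes (a level chosen after seeing the data) had 8524 to 14422 summed CPM over the proteasome genes, and the 9 with less had 2930 to 8425. All 6 libraries numbered 2 were in the second set. In a fit with group and log2 rRNA share, 28 members were higher and 2 lower per doubling of the share, against 28.0% of all genes higher and 34.0% lower. Psmb4 was higher by 1.13 (SE 0.17) and Psmd1 by 1.00 (SE 0.11) on the log2 scale per doubling, while Psme4 was -0.47 (SE 0.10) and Psmd5 was -0.30 (SE 0.12, adjusted p = 0.0398). With group, number and rRNA share in 1 fit, the edgeR quasi-likelihood test called 0 members between number 2 and number 1 libraries, beside 12 of 14398 genes. At an unadjusted p below 0.05 there were 19 members, beside 3702 of 14398 genes. Number and rRNA share therefore cannot be told apart here. With the rRNA rows left out, 29 members were lower in number 2, all 29 of them shared with the fit above.

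**Figure D5:**
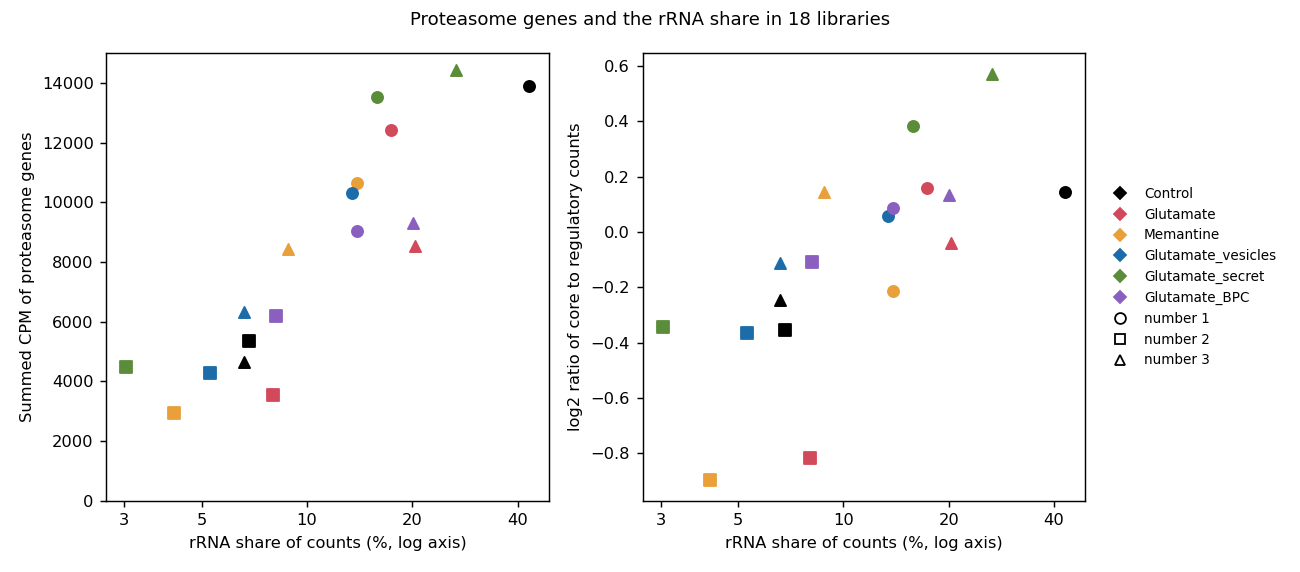
Summed CPM of proteasome genes, and the core to regulatory ratio, against the share of counts on rRNA genes (log axis) in the 18 libraries, coloured by group with 1 marker shape per replicate number. The 9 libraries with more than 10% rRNA lie at 8524 CPM or more and the other 9 at 8425 CPM or less, and the ratio is 0.862 to 1.49 in the first set and 0.537 to 1.11 in the second.

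Genes around the proteasome were also followed, in lists of its pathway. No gene of the 5 pathway lists was called between any pair of groups by the edgeR quasi-likelihood test, where at most 0.0139% of all genes were called. Of 16 tested assembly and associated factors, 0 had an unadjusted p below 0.05 between Glutamate and Control (median log2 fold change 0.17), with the smallest p for Zfand2a, a stress-induced proteasome partner (0.69, SE 0.36, adjusted p = 0.714). Of 9 regulators of proteasome genes, 0 had an unadjusted p below 0.05 (median 0.20), with Stat3 at 1.13 (SE 0.56, adjusted p = 0.661) and Nfe2l2 at 1.11 (SE 0.70, adjusted p = 0.835). Of 14 ubiquitin and ubiquitin-activation genes, 1 had an unadjusted p below 0.05, the conjugating enzyme Ube2d1 (-1.16, SE 0.30, adjusted p = 0.282), at 40.7 ± 3.86 CPM in Control and 18.2 ± 2.42 CPM in Glutamate (SD, n = 3). Of 12 shuttle and unfolding factors, 1 had an unadjusted p below 0.05, the shuttle factor Ubqln2 (-0.70, SE 0.32, adjusted p = 0.599). In that pair 8.11% of all genes had an unadjusted p below 0.05, so no excess can be read from 1 gene in a list of 12 or 14. Between number 2 and number 1 libraries, 7 of 16 assembly factors were lower and 4 higher, 7 of 14 ubiquitin genes were lower and 3 higher, and 3 of 9 regulators were lower and 5 higher, beside 28.5% of all genes lower and 32.8% higher. In that contrast 9 of 16 class I and interferon genes were higher and 1 was lower, the opposite direction to Psmb8, Psmb9, Psme1 and Psme2, and 6 of 10 microglia markers were higher and 0 lower.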

How the data were processed

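Gene-level estimated counts of 18 libraries were deposited, 3 for each of 6 groups. According to the study's methods, the authors removed adapters and poor bases with Cutadapt and Trimmomatic, ran Salmon against Ensembl 106 rat transcripts of the rn6 build with the genome as decoy, and summed transcripts to genes with tximport; the submitters' processing notes also name STAR. The labels and methods read here give no Salmon version. The labels name a DNBSEQ strand-specific mRNA library, while the methods name another kit and sequencer. A transcript-based count can divide reads between near-identical genes, and rRNA reads that passed selection take part of the depth.

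The deposited expected counts were rounded to whole numbers (the totals changed by at most 0.000176%). Genes were kept by filterByExpr (minimum count 10, minimum total 15), which left 14398 of 31463. Libraries were scaled by TMM, and all 18 were fitted with 1 mean per group by the edgeR 4.0.16 quasi-likelihood test in R 4.3.3, two-sided, with Benjamini-Hochberg adjustment over all genes tested. CPM values use the TMM-scaled totals. Intervals are 95% intervals of the fit. Variance shares come from log2 CPM with a prior count of 2. DESeq2 1.42.0, the edgeR likelihood-ratio test, RLE factors, no scaling factors, no filter, the replicate number as a block, the rRNA share (78 rows) as a covariate, only the groups compared, and each library left out were tried as alternatives. The fits of replicate number and rRNA share, the count of genes above or below Control with all 3 materials, and the set without Control 1 and Memantine 3, were chosen after seeing the data. The scripts were tested on simulated data.

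Members and gene lists were chosen with earlier results of these data known. Named with values were the cutting subunits and their inducible counterparts, the activators, the member of smallest p in each comparison, the 3 highest and 3 lowest after glutamate, the 5 of smallest p over 6 groups, and members that failed the filter. Others with values (Psmb4, Psma7, Psmd12, Psmd2, Psmd6 and members whose ranges were separate) were chosen after their values were seen. Promoters were matched by symbol to RefSeq on GRCr8, a build other than that of the counts, so they were linked by name only. Replicate numbers paired the libraries where each of 3 correlations of deviations from the group means was over 0.1, which held for Memantine, Glutamate_secret and Glutamate_BPC against Glutamate and for Glutamate_vesicles against Control (lowest correlations 0.57, 0.44, 0.45 and 0.21).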

Additional observations from a re-analysis of the deposited data

How the results depend on the processing

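Of the 9 comparisons and the test over 6 groups, none gained a called proteasome gene under any alternative run, and the median log2 fold changes moved by less than the spread between libraries. For the comparisons, shares of all genes called are given here only for the main fit and the fit with the number as a block. With 3 libraries a group and no term for number in the main fit, the intervals of single genes often exceeded 1 log2 unit either way. That width limits what can be read from the lack of calls. With the replicate number as a block, the log2 fold changes of Glutamate against Control were -0.26 for Psmb6 and -0.11 for Psmb7, both with the other sign. That fit called 0 members in any pair. It called 1.15% of all genes for Glutamate, 4.86% for Glutamate_secret and 1.74% for Glutamate_BPC against Control. In those pairs the numbers did not pair the libraries by the rule above. It called 0% for Memantine against Control and for Glutamate_vesicles against Glutamate. With the rRNA share as a covariate the values of Psmb6 and Psmb7 were -0.16 and -0.10. Psmb6 was -0.0297 with RLE factors and -0.0303 with DESeq2, and Psmd1 was 0.11 without scaling factors. Without Control 1 and Memantine 3 together, Psmc6 was 0.18, Psmd1 1.18, Psmd7 0.71 and Psmb5 0.69 in Glutamate against Control, and Psmc6 was 0.0515 in Glutamate_vesicles against Control. With single libraries left out, the values of Glutamate against Control ran from -0.74 to 0.23 for Psmc6, -0.86 to 1.23 for Psmd1, -0.81 to 0.75 for Psmd7, -0.91 to 0.73 for Psmb5, -0.80 to 1.04 for Psmb6, -0.49 to 0.63 for Psmb7, -0.0414 to 0.87 for Psme2 and -0.39 to 0.64 for Psme4, and Psmc6 ran from -0.88 to 0.0894 in Glutamate_vesicles against Control. The 29 members lower in number 2 than in number 1 libraries became 11 without scaling factors and 0 with the rRNA share as a covariate, and 25 to 31 with single libraries left out. In that contrast Psmd2 was 0.54 without scaling factors and Psmd5 was -0.0372 with the rRNA share as a covariate. The cause of these changes was not tested.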
